A study of Mus musculus with 21 samples.

Results

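The Zic genes analysed here are Zic1, Zic2, Zic4 and Zic5, which encode zinc finger transcription factors. They were chosen by symbol, with their levels over the groups already known, and are 4 of the 23827 rows in each expression file. Each symbol has 1 row.

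The libraries came from forebrain or kidney of mouse embryos at E14.5 and, except for 6 libraries of total RNA, were made by translating ribosome affinity purification (TRAP), in which a Cre-activated mCherry-tagged ribosomal protein, Rpl10a, allows ribosome-bound RNA to be pulled down from the cells that made it. The question was which RNAs are on ribosomes in a whole organ and in its endothelial or dorsal telencephalic cells. All 21 libraries came from embryos heterozygous for both the Cre allele and Gt(ROSA)26Sor-mCherry-Rpl10a, an allele driven by the CAGGS promoter and derived from 1 embryonic stem cell clone, and every sample held tissue pooled from several organs. There were 7 groups of 3 samples. With Sox2Cre, which recombines in all cells of the embryo proper, total RNA, called the transcriptome, and RNA on tagged ribosomes, called the translatome, were taken from forebrain and from kidney. With Cdh5CreERT2, active in endothelial cells after tamoxifen, ribosome-bound RNA was taken from the forebrain (brain EC) and the kidney (kidney EC), and with Emx1Cre from the dorsal telencephalic lineage of the forebrain (Emx1-lineage). The forebrain dissection took in part of the diencephalon. The files hold read counts and RPKM (reads scaled to the length of the transcript and to the reads of the library), and total counts ranged from 21760652 to 79231692 reads per library. In bulk samples fewer cells of a type and less RNA per cell cannot be told apart.

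Zic proteins bind DNA through zinc fingers closely related to those of the Gli proteins, the effectors of Hedgehog signalling, and can act as activators, repressors or cofactors. In the embryonic brain they are known from the dorsal midline, the septum, the thalamic region, the cerebellar primordium and the meninges. In humans, deletion of ZIC1 together with ZIC4 has been linked to Dandy-Walker malformation, and ZIC2 mutation causes holoprosencephaly.

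On GRCm38, with the GENCODE vM21 models that carry the RefSeq identifiers of the files, the 4 genes form 2 head-to-head pairs. Zic1 (NM_009573, chr9:91360500-91365810, minus strand, 4 exons) and Zic4 (NM_009576, chr9:91368970-91387793, plus strand, 5 exons) start 3160 bases apart and are read away from each other. Zic5 (NM_022987, chr14:122456795-122465677, minus strand, 2 exons) and Zic2 (NM_009574, chr14:122475435-122479852, plus strand, 3 exons) start 9758 bases apart. Another Zic4 transcript model begins inside Zic1, and Gm37477, on the minus strand, lies within Zic4. The libraries do not mark the strand, so reads of such overlaps cannot be assigned to a gene by strand.

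The sequences just before the starts of the Zic1 and Zic4 models are shown, from RefSeq (GRCm38.p6), because the pair starts from 1 stretch of DNA and both genes had their lowest forebrain level in brain EC, as described below. The window is 250 bases before the RefSeq start, printed 5′ to 3′ on the strand of the gene and ended where the GENCODE model begins, with CG dinucleotides in capitals. The Zic1 run is chr9:91365811-91366018 (minus strand) and the Zic4 run is chr9:91368722-91368969 (plus strand).
Zic1: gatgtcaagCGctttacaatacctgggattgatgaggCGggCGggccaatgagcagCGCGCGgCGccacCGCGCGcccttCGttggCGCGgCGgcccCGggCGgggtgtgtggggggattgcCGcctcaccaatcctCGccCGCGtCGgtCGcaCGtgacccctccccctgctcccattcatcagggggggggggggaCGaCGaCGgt
Zic4: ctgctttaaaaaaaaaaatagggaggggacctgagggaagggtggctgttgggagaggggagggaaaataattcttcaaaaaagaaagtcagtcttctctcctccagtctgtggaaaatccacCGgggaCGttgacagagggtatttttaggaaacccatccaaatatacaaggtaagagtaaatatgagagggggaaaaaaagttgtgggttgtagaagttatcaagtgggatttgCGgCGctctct

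The sequences differ in composition. The full Zic1 window held 27 CG and 66% G and C, and 8.56% of the 32851 mouse promoter windows of the same length held as many CG. The Zic4 window held 4 CG and 44.4% G and C, which 62.2% of promoter windows matched or passed in CG. The median window held 6 CG and 52.4% G and C. Of the chromosome 14 pair, only the Zic5 window was used here, with 11 CG.

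All 4 genes were read in each of the 12 forebrain libraries, and Zic1 was the most abundant in each of their groups except brain EC. Zic1 stood at 91.6, 84.4 and 81.1 RPKM in the brain transcriptome, 113, 112 and 104 in the brain translatome, 50.7, 51.8 and 49.0 in the Emx1-lineage, and 39.1, 30.8 and 34.0 in brain EC. The groups did not overlap, and the level fell in the order translatome, transcriptome, Emx1-lineage and brain EC. Its pair partner Zic4 stood at 31.4, 33.7 and 31.9 RPKM in the transcriptome, 31.1, 35.5 and 31.2 in the translatome, 12.0, 12.5 and 11.4 in the Emx1-lineage, and 8.20, 7.88 and 6.78 in brain EC. Zic4 thus had the same order of groups, except that transcriptome and translatome overlapped.

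Zic2 had a different order, with brain EC at the top. It stood at 38.5, 41.0 and 38.1 RPKM in the transcriptome, 42.5, 47.8 and 42.5 in the translatome, 26.3, 25.1 and 25.8 in the Emx1-lineage, and 60.1, 55.0 and 54.9 in brain EC. These 4 sets of values did not overlap. Zic5, the partner of Zic2, was the least abundant at 4.26, 3.81 and 3.90 RPKM in the transcriptome, 3.24, 3.60 and 3.20 in the translatome, 1.91, 1.97 and 1.65 in the Emx1-lineage, and 1.98, 1.87 and 1.70 in brain EC. Its brain EC and Emx1-lineage values overlapped, with both below the whole forebrain. Zic5 rested on 149 to 514 reads per forebrain library, against 1593 or more for each of the other 3 members.

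**Figure D1:**
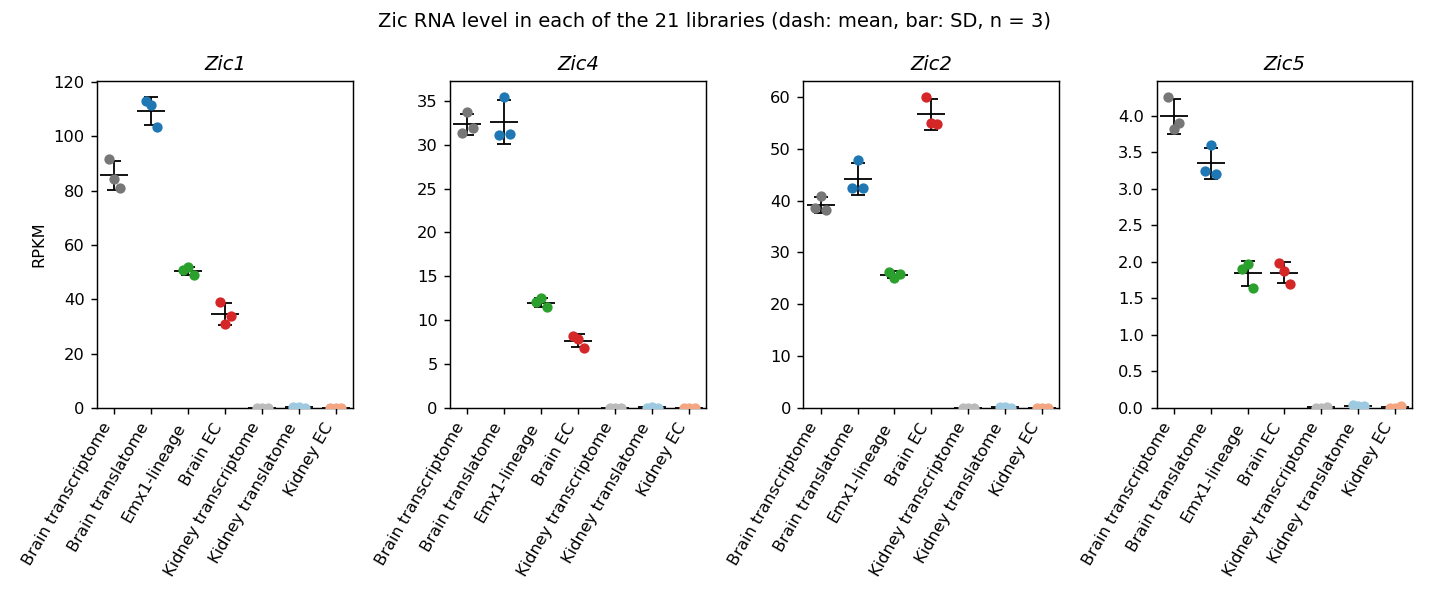
RPKM (linear axis, a separate scale for each gene) of Zic1, Zic4, Zic2 and Zic5 in each of the 21 libraries, with points for libraries, dashes for group means and bars for the SD of 3. Zic1 and Zic4 are lowest among forebrain groups in brain EC, Zic2 is highest there, and the kidney groups lie at the bottom of every panel.

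RPKM is corrected for length, so levels can also be compared between genes, within the gene models used. Summed over the 4 genes, RPKM was 189.7 ± 9.06 (SD, n = 3) in the brain translatome, 161 ± 5.56 in the transcriptome, 90.05 ± 1.90 in the Emx1-lineage and 101 ± 7.49 in brain EC. Zic1 made up 53.1 ± 1.87% of that sum in the transcriptome, 57.7 ± 1.68% in the translatome and 56.1 ± 0.54% in the Emx1-lineage, but 34.3 ± 1.82% in brain EC. The share of Zic2 was 24.3 ± 0.98%, 23.3 ± 0.87% and 28.6 ± 0.99% in the same 3 groups and 56.3 ± 1.29% in brain EC. Zic4 went from 17.2 ± 0.76% in the translatome to 7.57 ± 0.64% in brain EC, and Zic5 stayed at or under 2.57% in every forebrain library. The falling order in brain EC was thus Zic2, Zic1, Zic4 and Zic5, where the 3 other forebrain groups had Zic1, Zic2, Zic4 and Zic5. The length behind the Zic5 RPKM was 0.711 of that of Zic1, although the GENCODE model of Zic5 has 4767 exon bases and that of Zic1 2811. The length behind the Zic4 RPKM was 1.22 of that of Zic1, although the GENCODE model of Zic4 has 2535 exon bases. The levels, shares and ratios of Zic4 and Zic5 relative to the other genes thus depend on the gene model. Zic4 had more reads than Zic2 in the transcriptome (19969 against 17577, summed over 3 libraries) and the translatome (14184 against 13988). The order of Zic2 above Zic4 in these groups therefore rests on the lengths used.

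**Figure D2:**
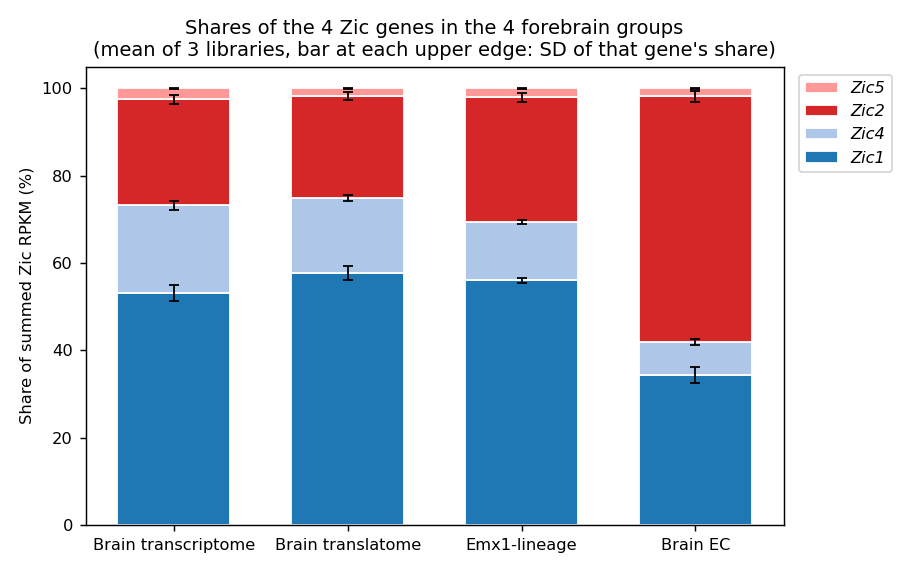
Share of the summed RPKM (percent, linear axis) held by each of the 4 Zic genes in the 4 forebrain groups, as means of 3 libraries with the SD of each gene's share at its upper edge. Zic1 holds 57.7% in the brain translatome and 34.3% in brain EC, while Zic2 holds 23.3% and 56.3%.

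Within the pairs, the ratios of levels also differed between groups. Zic1 exceeded Zic4 by 2.66 ± 0.23 times in the transcriptome, 3.37 ± 0.25 in the translatome, 4.21 ± 0.07 in the Emx1-lineage and 4.56 ± 0.58 in brain EC (SD, n = 3), where the last 2 groups overlapped. Zic2 exceeded Zic5 by 9.85 ± 0.86, 13.2 ± 0.08 and 14.0 ± 1.48 times in the first 3 groups and by 30.7 ± 1.54 in brain EC, where translatome and Emx1-lineage overlapped. The ratio of Zic2 to Zic1, genes of different pairs, was 0.459 ± 0.03, 0.404 ± 0.03 and 0.509 ± 0.02 in those 3 groups and 1.64 ± 0.13 in brain EC. Here the transcriptome overlapped both the translatome and the Emx1-lineage.

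The comparison of brain translatome with brain transcriptome asks which RNAs are over- or under-represented on tagged ribosomes. The paper names biases of the method as a possible part of such differences, for example tagged Rpl10a levels that differ between cell types. Such biases were not tested here. Genes were tested by edgeR's quasi-likelihood test with Benjamini-Hochberg adjustment over 19446 genes and a threshold of 0.001. Of all genes 37.1% were called, 18.6% as higher and 18.5% as lower. The levels of the 4 members were known when they were chosen, so here and in the comparisons that follow their differences are a description, without a test. Zic1 was at 0.38 ± 0.06 on the log2 scale (translatome minus transcriptome, SE), Zic2 at 0.20 ± 0.05, Zic4 at 0.04 ± 0.06 and Zic5 at -0.23 ± 0.10. Each translatome library lay above each transcriptome library for Zic1 and Zic2 and below for Zic5, and for Zic4 the groups overlapped. Zic1 was at 0.33 without translatome replicate 1. Within the sequencing lane shared by the 3 translatome libraries and transcriptome replicate 1 it was at 0.27, with a spread that comes from the translatome libraries alone, and without that transcriptome library at 0.43, so that lane and library cannot be told apart.

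Counts in lists of other cell types stand beside the shares over all genes, 18.6% higher and 18.5% lower. Of 19 meningeal genes 6 were higher on ribosomes and 2 lower (median 0.54), of 12 pan-endothelial genes 6 were higher and none lower (0.53), and of 6 microglial genes 4 were higher. Among 16 genes of the cortical hem, choroid plexus and Cajal-Retzius cells 7 were higher and none lower, with Ttr, the transthyretin gene of the choroid plexus, at 547 ± 61.8 against 328 ± 35.3 RPKM. Of 12 general neural genes 2 were higher and 3 lower, and of 4 red blood cell genes 3 were lower. The part of these cell types in the Zic values was not tested.

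Of the 6 genes listed as relatives (Gli1 to Gli3 and Glis1 to Glis3), 2 were lower on ribosomes and 4 were not called, where 37.1% of all genes were called. Gli1, a Hedgehog target gene as well as an effector, was lower by -0.94 ± 0.10 (edgeR adjusted p = 1.4e-06) and Glis2 by -0.31 ± 0.06 (5.2e-04). Without transcriptome replicate 1, or without any 1 of the translatome libraries, the count of lower relatives was 1. Of 14 genes of the Hedgehog pathway 1 was higher, the signal transducer Smo (0.50 ± 0.05), and 4 were lower, among them the co-receptors Boc (-0.59 ± 0.08) and Cdon (-0.57 ± 0.07).

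Brain EC was compared with the brain translatome to describe ribosome-bound RNA of the endothelium against that of the whole forebrain. Zic1 was lower in brain EC by -1.37 ± 0.09 on the log2 scale (edgeR, SE), Zic4 by -1.81 ± 0.08 and Zic5 by -0.56 ± 0.12, and Zic2 was higher by 0.65 ± 0.07. In RPKM, brain EC libraries held 31.6 ± 3.79% of the mean translatome level of Zic1, 23.4 ± 2.28% of that of Zic4 and 128 ± 6.76% of that of Zic2 (SD, n = 3). Over all 19103 genes tested 46.2% were called, 24.8% as higher and 21.4% as lower, and the median gene was at -0.01. Scaling by total counts in place of TMM factors moved that median to -0.30 and, with it, Zic1 to -1.67, Zic4 to -2.10, Zic5 to -0.86 and Zic2 to 0.35, and the share of calls that were higher from 53.7% to 36.1%.

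Markers of several cell types moved between the same groups. All 12 pan-endothelial genes were higher in brain EC, with a median of 4.53, including Cdh5 (VE-cadherin) at 370 ± 22.4 against 16.6 ± 1.55 RPKM, and all 12 brain endothelial genes were higher too, including the glucose transporter Slc2a1 at 722 ± 28.9 against 48.6 ± 2.08 RPKM. The groups thus carried these markers of their labels, in lists that were chosen with earlier results of these data known. Neural markers were reduced but present. Of 12 listed neural genes 11 were lower and 1, Chd5, was not called (-0.15 ± 0.07), with a list median of -1.63 and summed RPKM of 521 to 641 against 2624 to 2657. Genes of the dorsal telencephalon (11 of 11 lower, median -1.97), ventral telencephalon (12 of 12, -1.98) and diencephalon (8 lower and 1 higher of 12, -1.38) showed like values.

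Meningeal genes went the other way. Of 19 listed, 16 were higher in brain EC and 3 were not called, with a median of 1.25. Their summed RPKM was 903, 479 and 514 in the brain EC libraries against 217 to 235 in the translatome. Ptgds, the prostaglandin D synthase of the leptomeninges, stood at 251 ± 142 against 13.1 ± 3.27 RPKM, and the forkhead factor Foxc1 at 31.6 ± 2.07 against 5.62 ± 0.79. Twist1 (0.11 ± 0.19) and Lum (-0.06 ± 0.10) were among those not called. Without translatome replicate 1 the count of higher meningeal genes was 8. The library with the largest meningeal sum, brain EC replicate 1, had the highest level of each Zic gene, and it also had the highest neural (641 against 521 and 619), dorsal (205 against 163 and 161), diencephalic (67.2 against 55.7 and 65.7) and mural (84.4 against 69.1 and 79.8) sums. Its brain endothelial, cortical hem and red blood cell sums were highest too. The ventral sum was highest in replicate 3 (90.2 against 89.5 and 86.3). The pan-endothelial sum (4232 against 4197 and 4079) and the microglial, Gli and Hedgehog sums were highest in replicate 2. Of 12 mural genes 3 were higher and 7 lower, and of 6 microglial genes none was higher and 3 were lower. The part of these other cell types in the Zic values was not tested.

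Set among the 47 listed genes of the neural, dorsal, ventral and diencephalic lists, Zic4 lay above 21 and below 26, Zic1 above 35, Zic5 above 44 and Zic2 above 46 in their difference between brain EC and the translatome. The 1 gene above Zic2 was Irx3, a homeobox gene of the diencephalic list, at 1.57 ± 0.17. The summed RPKM of that list was 76.0 to 97.8 in kidney EC against 55.7 to 67.2 in brain EC. Among its genes with a mean of at least 1 RPKM, Irx3 and Irx5 had the lowest differences of brain EC against kidney EC. Against the meningeal list, Zic2 lay above 5 of 19 genes, and Zic1, Zic4 and Zic5 lay below every one. Zic2 also lay within the mural list (above 10 of 12) and the Gli and Glis list (above 5 of 6). In the list of cortical hem, choroid plexus and Cajal-Retzius cells it lay above 13 of 16. Of those 16 genes 4 were higher in brain EC and 8 lower, with a median of -0.82. None of the Zic genes came near the pan-endothelial list, whose lowest value was 3.96, for Egfl7. The plot of brain EC differences by list shows these positions.

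**Figure D3:**
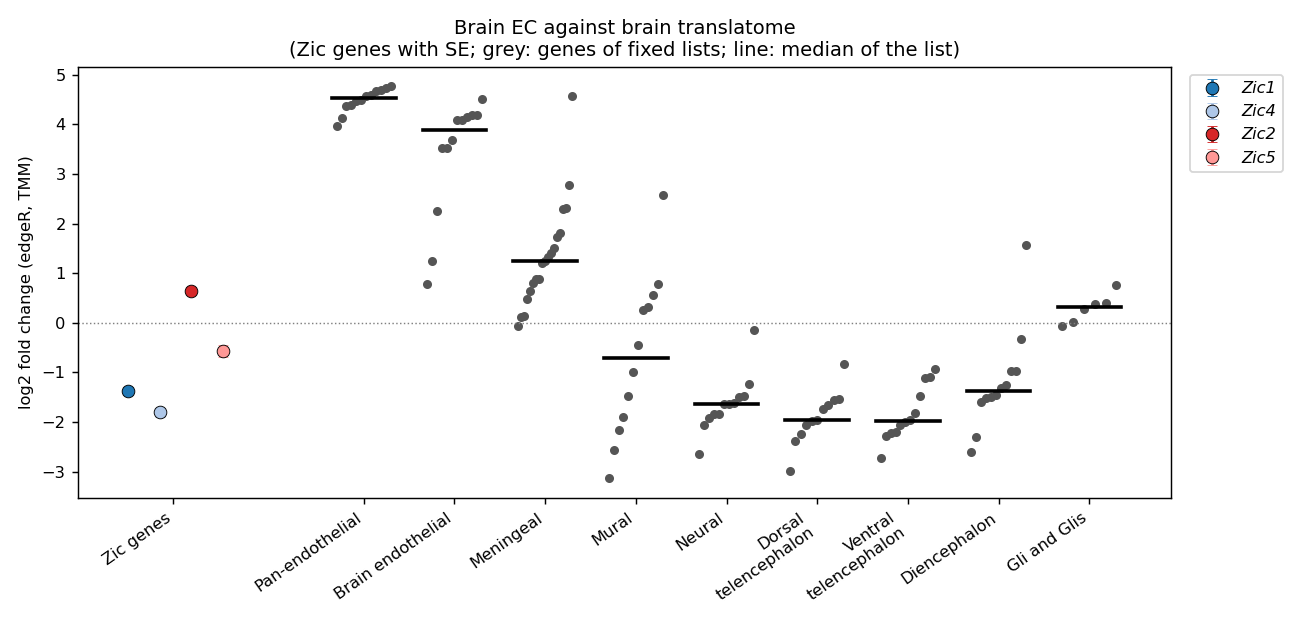
log2 fold change of brain EC against the brain translatome (edgeR with TMM factors, linear axis of log2 values) for the 4 Zic genes with SE and, in grey, for genes of the named lists, with a line at each list median. Zic4 lies near the medians of the neural, dorsal and ventral lists, and Zic1 lies above those medians but within the ranges of these lists. Zic2 lies within the ranges of the meningeal, mural and Gli and Glis lists, and above every gene of the diencephalic list except Irx3. All 4 Zic genes lie below the pan-endothelial genes.

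Of the 6 relatives 1 was higher in brain EC, Gli3 (0.76 ± 0.09), and none was lower, with a median of 0.33. In the Hedgehog pathway 3 of 14 genes were higher and 4 lower. Those higher were the ligand Dhh, at 5.36 ± 0.62 against 0.173 ± 0.03 RPKM (5.26 ± 0.17 on the log2 scale), Disp1, which releases the ligand (0.66 ± 0.08), and the inhibitor Sufu (0.41 ± 0.07). The ligand Shh (-1.66 ± 0.17) and the co-receptors Boc (-1.26 ± 0.09) and Gas1 (-0.95 ± 0.09) were lower, as was Gpr161 (-0.61 ± 0.12).

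In the Emx1-lineage, compared with the brain translatome to describe the dorsal telencephalon, all 4 members were lower. The differences were -1.06 ± 0.05 on the log2 scale for Zic1, -0.73 ± 0.05 for Zic2, -1.39 ± 0.06 for Zic4 and -0.81 ± 0.11 for Zic5 (edgeR, SE). In RPKM, Emx1-lineage libraries held 46.1 ± 1.27% of the mean translatome level of Zic1, 58.1 ± 1.43% of that of Zic2, 36.8 ± 1.64% of that of Zic4 and 55.0 ± 5.12% of that of Zic5 (SD, n = 3). Over all 19006 genes tested 22.1% were called, 9.20% as higher and 12.8% as lower, and under total counts the share of calls that were higher went from 41.7% to 29.9%.

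All 11 dorsal telencephalic genes were higher in the Emx1-lineage, with a median of 1.10, among them the homeobox gene Emx1 itself at 95.8 ± 5.85 against 51.2 ± 3.32 RPKM and Neurod6 at 483 ± 29.6 against 216.5 ± 8.36. Of 12 general neural genes 3 were higher and 3 lower. Genes of other regions and tissues were lower. This held for 11 of 12 ventral telencephalic genes (median -1.99), 9 of 12 diencephalic genes (-1.89), 18 of 19 meningeal genes (-2.01) and 12 of 12 pan-endothelial genes (-3.83). Summed meningeal RPKM was 62.2 to 73.1 against 217 to 235. The part of these tissues in the Zic values was not tested.

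The Zic genes lay between these groups. All 4 were lower than every gene of the dorsal and general neural lists. Zic2 was less reduced than 18 of 19 meningeal, 11 of 12 ventral and 10 of 12 diencephalic genes, and Zic4, the most reduced member, was less reduced than 17 of 19, 10 of 12 and 9 of 12. The least reduced meningeal gene was the retinoic acid binding protein gene Crabp2 (-0.50 ± 0.15). Among genes of the cortical hem, choroid plexus and Cajal-Retzius cells 3 of 16 were higher, including Reln, the Cajal-Retzius signal (0.67 ± 0.05), and 8 were lower, including the roof signal Bmp4 (-1.35 ± 0.15), with a median of -0.55. Among the relatives Gli2 (0.57 ± 0.06) and Gli3 (0.65 ± 0.06) were higher, opposite in sign to the Zic genes. In the Hedgehog pathway the co-receptors Cdon (1.06 ± 0.05), Gas1 (0.86 ± 0.06) and Boc (0.77 ± 0.08) were higher, and the ligand Shh (-1.66 ± 0.13) and the receptor Ptch1 (-0.62 ± 0.08) were among 3 that were lower.

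**Figure D4:**
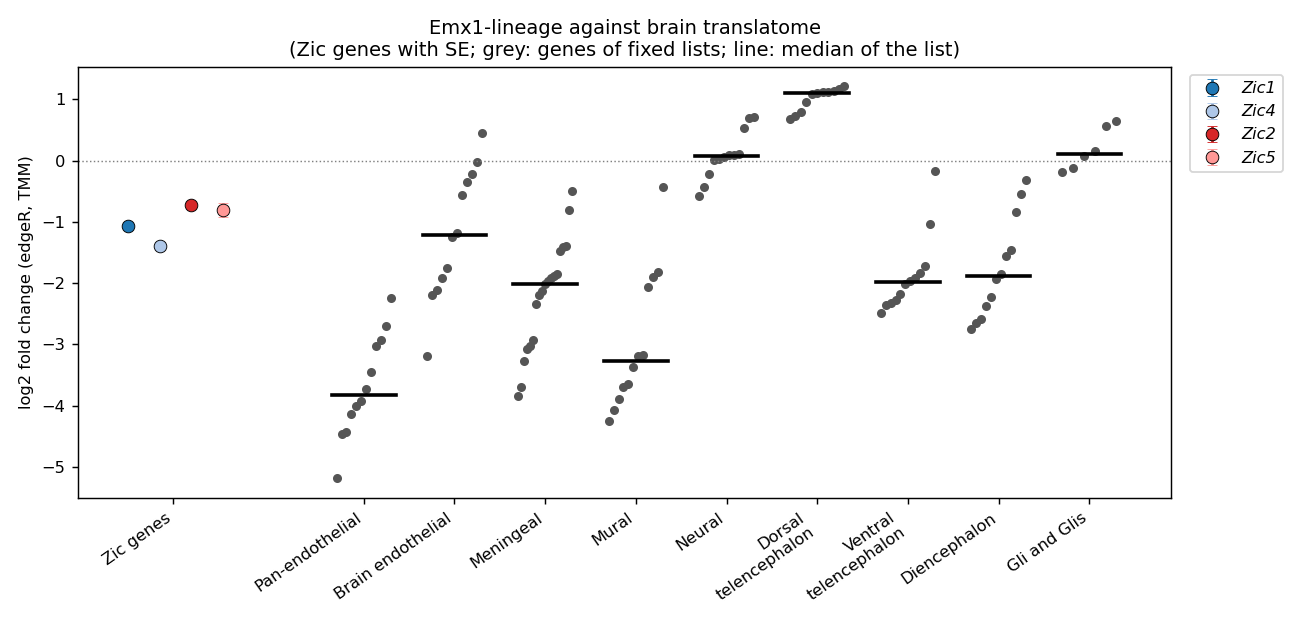
log2 fold change of the Emx1-lineage against the brain translatome (edgeR with TMM factors, linear axis of log2 values) for the 4 Zic genes with SE and, in grey, for genes of the named lists, with a line at each list median. The Zic genes lie between -0.73 and -1.39, under the dorsal and neural lists and above the median of the ventral, diencephalic and meningeal lists.

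Both comparisons share the 3 translatome libraries as reference, and the brain EC and Emx1-lineage libraries were each sequenced in a lane of their own, so that lane and group cannot be told apart. Side by side, the 4 members differed from the translatome by -1.37 in brain EC and -1.06 in the Emx1-lineage (Zic1), 0.65 and -0.73 (Zic2), -1.81 and -1.39 (Zic4) and -0.56 and -0.81 (Zic5). Zic2 was the only member with opposite signs.

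In kidney the 4 genes were at or near 0. In the 3 kidney transcriptome libraries Zic1 had 0, 3 and 0 reads, Zic2 0, 1 and 1, Zic4 0, 1 and 0, and Zic5 0, 0 and 1. In kidney EC Zic1 had 0, 5 and 0 reads, Zic2 3, 5 and 0, Zic4 none in any library, and Zic5 0, 0 and 3. The highest counts were in the kidney translatome, with 18, 17 and 1 reads for Zic1 and 11, 11 and 3 for Zic2. No kidney library exceeded 0.220 RPKM for any of them, and forebrain and kidney libraries did not overlap.

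The endothelial translatomes of the 2 organs were set side by side, without a test, to compare endothelium between organs. Over the summed reads of 3 libraries each, scaled to total counts, brain EC exceeded kidney EC 2786 times for Zic1 (exact 95% interval 1193 to 8580), 2512 times for Zic2 (1275 to 5819) and 176 times for Zic5 (59.9 to 853). For Zic4, with 5389 reads against 0, it was at least 1240-fold higher, taking 3 reads over the kidney EC group as the limit that a count of 0 allows. The intervals cover counting error only. All kidney EC reads of Zic1 came from replicate 2 and all of Zic5 from replicate 3. Leaving out each kidney EC library in turn, a step chosen after seeing the data, gave 1737 and 1820 times for Zic1 without replicates 1 and 3 and at least 3357-fold without replicate 2, and 2507, 4844 and 1641 times for Zic2 without replicates 1, 2 and 3. For Zic5 it gave 110 and 127 times without replicates 1 and 2 and at least 115-fold without replicate 3, and for Zic4 the bound lay between 774 and 897. Neural genes differed in the same direction, with 12 of 12 higher in brain EC and summed RPKM of 521 to 641 against 19.2 to 20.6. Brain endothelial genes did so too, with 12 of 12 higher (median 5.63) and sums of 3263 to 3368 against 78.2 to 81.4. Of 16 genes of the cortical hem, choroid plexus and Cajal-Retzius cells 11 were higher and none lower (3.65). Of 19 meningeal genes 10 were higher and 6 lower (1.43), while pan-endothelial genes had a median of 0.27. The part of these cell types in the Zic values was not tested. Of 19238 genes tested in this comparison 37.0% were called, 20.1% as higher in brain EC and 16.9% as lower.

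The genes whose pattern was most like that of each member were ranked by Pearson r of log2(RPKM + 1) over the 21 samples, among 14558 genes with a group mean of at least 1 RPKM. The coefficients are a description, since the samples share libraries and depth with every gene compared, and brain against kidney makes up most of the spread. For Zic1 they were Map6 (0.999), Rab3c, Ttr, Psd and Rgs8, a set of neuronal genes and, in Ttr, a choroid plexus gene. For Zic4 they included the interneuron homeobox genes Dlx2 (0.998) and Dlx1, with Sox2ot and Tmem130. For Zic5 they were Dlx2 (0.996), Dlx1, Cacna1b, Six3os1 and Zic4. For Zic2 they were 2610035F20Rik (0.998), Unc13a, Apc2, Unc79 and Rusc2.

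Among the 4 genes, Zic4 ranked 5 for Zic5, and Zic5 ranked 12 for Zic4, though they belong to different pairs. Zic4 ranked 73 for Zic1, and Zic2 ranked 239. For Zic2, Zic1 was at rank 40, Zic5 at rank 157 and Zic4 at rank 240. A high coefficient did not mean the same order of the forebrain groups. Zic2 was highest in brain EC, whereas Apc2, a relative of the Wnt pathway component Apc, had group means of 103 RPKM in the transcriptome, 101 in brain EC, 84.4 in the translatome and 77.9 in the Emx1-lineage.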

How the data were processed

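E14.5 mouse forebrain and kidney RNA was sequenced in 21 libraries of 7 groups of 3, grouped by their titles. Reads were aligned by the authors with RUM 2.04 to GRCm38 and counted on UCSC refGene models. The deposited files give the read count per gene, without normalization, and the RPKM the authors computed from those reads. Total counts were 30546034 to 79231692 per forebrain library and 21760652 to 51331105 per kidney library, and precision is given as the SD of 3 samples or the SE of a log2 fold change.

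In 4 comparisons of 6 samples, counts of genes with at least 1 count went into the quasi-likelihood test of edgeR 4.0.16 under R 4.3.3, with TMM factors, Benjamini-Hochberg adjustment and a threshold of 0.001. Nothing in the labels says that samples of a group came from separate litters, so p-values measure the spread between these pooled samples. The study lists same-numbered brain translatome and transcriptome libraries as taken from 1 tissue sample, and their deviations from the group means correlated at 0.394 to 0.660 over 12400 genes. Same-numbered brain EC and kidney EC libraries correlated at 0.178 to 0.378, so their numbers may also be paired. The main fits had no term for replicate number and so did not use these pairings. An alternative fit with a replicate block did.

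The 4 members and the 13 lists of 150 genes were chosen with earlier results of these data known, and the members are given without a test in every comparison, although a test of the brain translatome against the transcriptome was planned. Genes were named by a rule, namely the members, the 5 genes most like each member, and up to 2 largest and 2 smallest differences per list and comparison, with the study's markers. Other genes that passed the test in the Hedgehog and Gli lists, the diencephalic and ventral genes, Apc2 and the kidney genes of the closing section were named after their values were seen. Alternatives were DESeq2 1.42.0, other scalings and filters, a replicate block, all 21 samples in 1 fit, a pseudocount of 0.1, each replicate left out and, chosen after seeing the data, a fit within a sequencing lane and each kidney EC library left out of the read ratios. A few genes that the rule or a list would name are not reported here. The script was tested on simulated data. Sequences and promoter windows came from RefSeq, where 3 of the members (Zic1, Zic4 and Zic5) matched, and gene models from GENCODE vM21. The longest exact stretch shared by transcripts of any 2 of the 4 members was 42 bases, between Zic1 and Zic4, and the other 5 pairs shared no run of 36 bases.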

Additional observations from a re-analysis of the deposited data

How the results depend on the processing

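Over 12 or 13 alternatives per comparison the differences of the 4 members kept their sign, except that Zic4 in the brain translatome against the transcriptome was -0.022 without translatome replicate 2 and from -0.022 to 0.065 over the libraries left out in turn. Zic1 there ranged from 0.27 to 0.43. With the replicate block, the difference was 0.38 for Zic1, 0.20 for Zic2, 0.04 for Zic4 and -0.23 for Zic5. That block, which uses the pairing of tissue samples, called 4500 genes higher on ribosomes and 4433 lower, against 3625 and 3596 in the unpaired main fit. Within the shared lane the genes called higher on ribosomes fell from 3625 to 2344, a fit with 1 transcriptome library. In the Emx1-lineage the genes called higher fell from 1749 to 1164 with at least 10 counts in 3 samples, to 1116 with the replicate block, whose numbers share nothing else there (correlations of 0.007 to 0.064), and to between 1110 and 1444 when 1 replicate was left out, with the lowest counts without Emx1-lineage replicates 1 (1138) and 2 (1110). The cause was not tested. In brain EC against the translatome the block, with correlations of -0.070 to 0.165, left 4665 genes called higher against 4740. A pseudocount of 0.1 kept 3 of the 5 genes most like Zic1, 2 of those of Zic4 and 1 of those of Zic5. Zic5 has the fewest reads, and the kidney values rest on a few reads, with no test between kidney groups.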

Other observations

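The few kidney reads of the Zic genes were not spread evenly over the kidney translatome libraries. Summed over the 4 Zic genes there were 34 and 37 reads (1.38 and 1.56 in reads per 1000000) in replicates 1 and 2, which were sequenced in a lane with brain transcriptome replicates 2 and 3, and 5 reads (0.230) in replicate 3, sequenced with the kidney transcriptome. The 34 and 37 reads equal 0.0586% and 0.0638% of the Zic reads of the brain transcriptome libraries in that lane. Genes of the forebrain named after these values were seen had a like distribution. Neurod6 had 21 and 20 reads against 1, and Tbr1 16 and 13 against 4. Emx1, with 52 and 62 reads against 72, did not. It also had 130, 139 and 101 reads in the kidney transcriptome libraries, which shared no lane with brain. Neurod6 had no read there and Tbr1 had 11, 5 and 6. Kidney EC libraries, sequenced in a lane of their own, held 3, 10 and 3 Zic reads. The part of the lane in these reads was not tested.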
